A study of Mus musculus with 6 samples.

Results

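Clec12a, Igsf6 and 7 further genes of the inhibitory receptor system of myeloid cells (Lilr4b, Sirpa, Cd33, Pilra, Cd200r1, Cd300a and Tyrobp) were followed in sorted pre-granulocyte-macrophage progenitors (PreGMs). The members were every probe set that the platform annotation gives to one of these 9 symbols and to no other. Each symbol had 1 such probe set, so 9 genes of the 19937 measured are described. All 6 arrays came from sorted bone marrow cells of female C57BL/6 mice carrying Cebpa flox/flox, an allele from which the gene for the myeloid transcription factor C/EBPα can be cut out. All mice had been given pIC, a double-stranded RNA that evokes interferon, 18 days before. In the 3 samples labelled Mx1Cre the mice also carried Mx1Cre, a Cre recombinase driven by the interferon-responsive Mx1 promoter, which is active in many tissues and not only in progenitors. The 3 samples labelled flox/flox lacked it, the ages are not stated, and the design text gives separate mice. PreGMs were gated as lineage-negative, Sca1-negative and Kit-positive cells without CD150, CD41, FcγRII and endoglin.

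Inhibitory receptors of myeloid cells carry a short tyrosine motif, the ITIM, in their cytoplasmic tail. When Src family kinases phosphorylate it, the phosphatases SHP-1 (Ptpn6), SHP-2 (Ptpn11) and SHIP-1 (Inpp5d) dock there and damp signals from activating receptors. Activating receptors pair with adaptors such as DAP12 (Tyrobp) and the Fc receptor γ chain (Fcer1g), whose ITAM recruits the kinase Syk. Many of these receptors come in pairs of closely related genes, and they mark the passage from progenitors to granulocytes and monocytes.

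Values are log2 expression per probe set, and every difference is the arrays labelled Mx1Cre minus the arrays labelled flox/flox. Cebpa itself went against the labels. It read 6.93, 6.71 and 6.85 in the arrays labelled flox/flox and 8.71, 9.31 and 8.98 in those labelled Mx1Cre, a difference of 2.17 ± 0.14 (limma SE, limma adjusted p = 2.65e-05). Neither the place of its probes relative to the deleted part nor an exchange of the labels was tested. Each direction below holds for the labels as deposited and would be reversed if they were exchanged. The selected antigen Kit averaged 10.5 and 10.6 in the flox/flox and Mx1Cre arrays. The progenitor antigen Cd34 averaged 10.3 and 11.3 in them, a 2.01-fold rise (limma adjusted p = 0.000692). Flt3, a receptor of early progenitors and dendritic cells, rose 4.43-fold from 7.39 ± 0.84 to 9.54 ± 0.18 (SD, n = 3 each, limma adjusted p = 0.00402, and 0.0781 with all probe sets in the fit). Slamf1 (CD150), excluded by the gate, averaged 5.46 and 5.29, below the lower quartile of gene levels, 5.63. Itga2b (CD41) averaged 7.95 and 7.63 and Eng (endoglin) 7.37 and 7.31, and Ly6a (Sca1) was not analysed here. Fcgr2b differed by 0.43 and Fcgr3 by -1.04. Of these 8 measured genes 4 had a limma adjusted p under 0.05, where 4.91% of all genes did. Cd34, Flt3 and Fcgr2b were higher and Fcgr3 lower in the arrays labelled Mx1Cre. Levels of different probe sets are not comparable with each other, and the quartile is only a guide to how dim a probe set is.

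Clec12a, Igsf6 and Sirpa were higher in the arrays labelled Mx1Cre by 5.90-fold, 6.32-fold and 2.06-fold, and Lilr4b was 3.20-fold lower. Cd33 and Cd200r1 differed little, and Pilra, Cd300a and Tyrobp least. With limma's test over all genes, at an adjusted p under 0.05, 4 of the 9 members were called, 3 higher and 1 lower, where 4.91% of all 19937 genes were called (2.63% higher and 2.28% lower). For 5 members, 4 with a positive and 1 with a negative difference, no array of one label fell within the range of the other. The same held for 21.6% of all genes (10.5% higher and 11.0% lower). The members were selected on their differences between these arrays, so these counts and the differences below are descriptions and no test of the members is given. The median difference over the 9 was 0.29, and over all genes -0.01. In sorted bulk samples more cells of a type and more RNA per cell cannot be told apart.

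**Figure D1:**
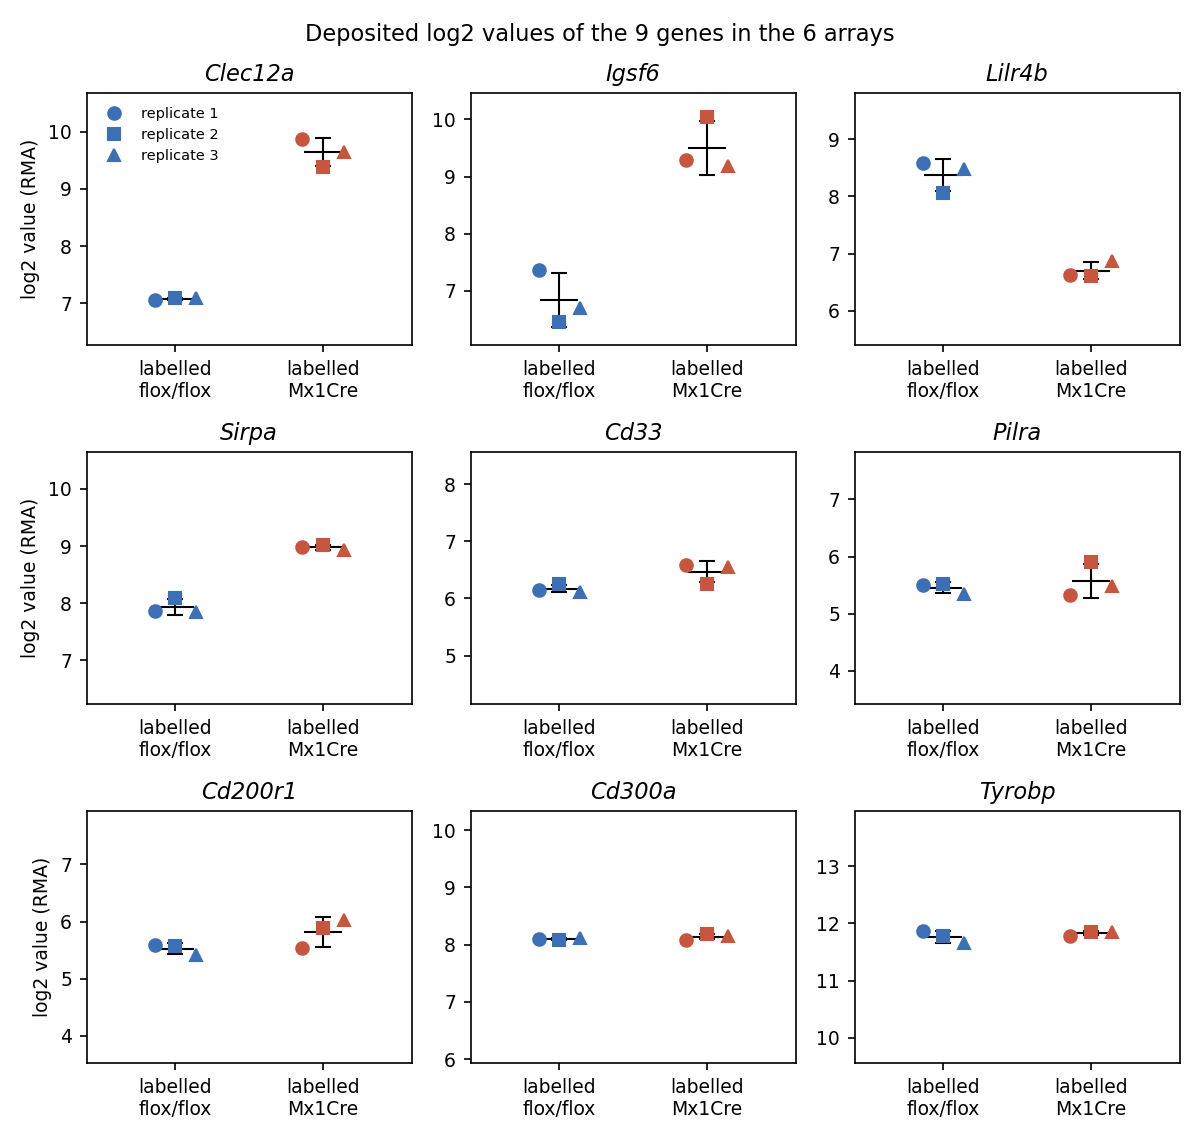
Log2 values of each of the 9 genes in the 6 arrays, with the arrays labelled flox/flox in blue and those labelled Mx1Cre in red. Bars give the mean and SD of 3 arrays, and every panel spans the same number of log2 units. Clec12a, Igsf6 and Sirpa sit higher, and Lilr4b lower, in all 3 arrays labelled Mx1Cre, while Tyrobp and Cd300a lie level.

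Clec12a encodes MICL (CLL-1), a C-type lectin with 1 ITIM on granulocytes and monocytes that senses products of dying cells. Its human counterpart is a surface marker of acute myeloid leukaemia cells. The arrays labelled flox/flox read 7.06, 7.08 and 7.10 and those labelled Mx1Cre 9.88, 9.39 and 9.65. The flox/flox arrays were almost equal, the Mx1Cre arrays spread more, and a gap of 2.30 separated the groups. The difference was 2.56 ± 0.12 (SE), from 7.08 ± 0.018 to 9.64 ± 0.24 (SD, n = 3 each). Leaving out any 1 array gave 2.44 to 2.68.

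The 250 bases before the RefSeq start sites (GRCm38.p6) are shown for the members with the widest differences, Clec12a (chr6:129349994-129350243, plus strand), Igsf6 (chr7:121074531-121074780, minus strand) and Lilr4b (chr10:51480362-51480611, plus strand). They are shown because the level of Cebpa, whose product binds DNA, also differed between the labels. It was higher in the same arrays as Clec12a and Igsf6, and Lilr4b went the opposite way. A part of C/EBPα in these differences was not tested. Capitals mark matches to TTNCNNAA on either strand, a loose form of the site that C/EBP factors bind.
Clec12a: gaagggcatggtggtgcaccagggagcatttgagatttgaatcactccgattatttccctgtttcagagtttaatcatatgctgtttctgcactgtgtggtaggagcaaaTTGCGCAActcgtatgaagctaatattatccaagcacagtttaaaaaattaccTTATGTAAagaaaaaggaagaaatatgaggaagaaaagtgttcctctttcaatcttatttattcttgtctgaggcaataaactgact
Igsf6: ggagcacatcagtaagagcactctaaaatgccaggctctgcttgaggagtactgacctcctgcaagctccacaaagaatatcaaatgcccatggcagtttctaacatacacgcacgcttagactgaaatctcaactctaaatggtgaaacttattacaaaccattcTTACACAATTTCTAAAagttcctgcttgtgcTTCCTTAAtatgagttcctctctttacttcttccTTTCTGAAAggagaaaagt
Lilr4b: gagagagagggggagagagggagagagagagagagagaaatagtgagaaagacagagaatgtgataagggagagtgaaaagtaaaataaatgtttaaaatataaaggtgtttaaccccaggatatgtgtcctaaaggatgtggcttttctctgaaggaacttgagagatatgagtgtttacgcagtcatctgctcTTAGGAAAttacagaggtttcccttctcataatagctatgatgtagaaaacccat
The first match of Clec12a, which begins 140 bases before the start, spells TTGCGCAA, the full palindrome that C/EBP dimers prefer. That full form is found in 0.164% of the 32851 promoter windows of this length, and in none of the other 5 members with a window here. It was searched for after the Clec12a sequence had been seen. The loose form was found in 5 of the 6 members with a window, Cd33 being the exception, and in 36.8% of all windows. Igsf6 had 5 matches, 2 of them overlapping, and Lilr4b 1. GAGGAA, a core of sites for the myeloid factor PU.1, was found on either strand in 5 of the 6, Lilr4b being the exception, and in 23.3% of all windows. A match is a description of letters and shows no binding.

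Igsf6 encodes a membrane protein with an immunoglobulin domain, found on dendritic and other myeloid cells, whose ligand is not well established. The arrays labelled flox/flox read 7.37, 6.46 and 6.71 and those labelled Mx1Cre 9.29, 10.05 and 9.18. Every Mx1Cre array lay above every flox/flox array, by at least 1.81, but both groups were loose: replicate 1 stood highest among flox/flox and replicate 2 among Mx1Cre. The difference was 2.66 ± 0.26 (SE), between means of 6.84 ± 0.47 and 9.50 ± 0.47 (SD, n = 3 each), and leaving out 1 array moved the difference between 2.39 and 2.92. In RefSeq Igsf6 lies within the bounds of Mettl9, a methyltransferase gene transcribed from the other strand. Mettl9 did not share the difference, at 0.06 ± 0.11 (SE, limma adjusted p = 0.886).

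Sirpa encodes the receptor that recognises CD47 on neighbouring cells and, through its ITIMs, restrains phagocytosis. The arrays labelled flox/flox read 7.87, 8.10 and 7.85 and those labelled Mx1Cre 8.99, 9.02 and 8.93. Both groups were tight and did not overlap. The difference was 1.04 ± 0.10 (SE), and leaving out 1 array gave 0.996 to 1.12. Its near copies of the Sirpb1 family were not analysed here, and shared probes between them cannot be told apart. Cd47, which encodes its ligand, was bright and flat at 12.6 ± 0.099 and 12.7 ± 0.064 (SD, n = 3 each).

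Lilr4b, also called Gp49a, encodes a receptor of mast cells and myeloid cells that, unlike its close relative, has no ITIM in its tail. The arrays labelled flox/flox read 8.59, 8.06 and 8.49 and those labelled Mx1Cre 6.63, 6.61 and 6.88. The groups were 1.19 apart at the nearest, and replicate 2 was the lowest array of both. The difference was -1.68 ± 0.14 (SE), and without 1 array it lay between -1.84 and -1.57. Its relative Lilrb4a (gp49B), which does carry ITIMs and is the next gene in RefSeq, read 7.73, 7.48 and 7.70 in the arrays labelled flox/flox and 6.49, 6.18 and 6.68 in those labelled Mx1Cre. It was 2.28-fold lower (-1.19 ± 0.13, SE, limma adjusted p = 0.000733), again with no overlap. The sequences of the pair are so alike that probes of one can read the other, so the 2 differences may not be independent. No other member had a difference below 0.

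Tyrobp encodes DAP12, the ITAM adaptor through which many activating partners of these receptors signal. It read 11.86, 11.77 and 11.65 in the arrays labelled flox/flox and 11.79, 11.84 and 11.85 in those labelled Mx1Cre. The values of the groups interleaved around a bright level that exceeds the mean level of 98.9% of genes. The difference was 0.06 ± 0.09 (SE), with a 95% interval from -0.14 to 0.26.

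Cd300a encodes an ITIM receptor for the lipids that dying cells expose. It read 8.10, 8.07 and 8.12 against 8.09, 8.18 and 8.15, and the groups overlapped. With the narrowest spread of the 9, its difference was 0.04 (95% interval -0.14 to 0.22).

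Cd33 encodes a sialic acid-binding lectin of the Siglec family, used in people as an antigen of myeloid leukaemia. The arrays labelled flox/flox read 6.16, 6.25 and 6.11 and those labelled Mx1Cre 6.59, 6.25 and 6.55. Only 0.0076 log2 units separated the nearest arrays, replicate 2 of each label and the difference was 0.29 ± 0.11 (SE). Cd200r1 encodes the receptor for CD200, which signals through Dok adaptors without an ITIM. It read 5.59, 5.57 and 5.42 against 5.54, 5.89 and 6.03. Replicate 1 of the arrays labelled Mx1Cre lay among the flox/flox arrays, and the other two above them, for a difference of 0.29 ± 0.13 (SE).

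Pilra encodes an ITIM receptor for sialylated proteins and has the activating partner genes Pilrb1 and Pilrb2. It read 5.50, 5.53 and 5.34 against 5.34, 5.90 and 5.48. The difference of 0.12 rested on replicate 2 of the arrays labelled Mx1Cre and was -0.05 without it. Pilra and Cd200r1 averaged 5.51 and 5.67, near the lower quartile of gene levels, where RMA tends to understate differences.

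The other genes of the system are given from lists chosen for their roles, also with earlier results of these data known, and are tested within the fit of all genes. Among 22 other inhibitory receptor genes 2 rose and 3 fell in the arrays labelled Mx1Cre, while 17 did not pass. That is 22.7% called, against 4.91% of all genes, with a median difference of 0.01 against -0.01. Milr1, an ITIM receptor of mast cells (Allergin-1), rose 2.07-fold, from 8.25 ± 0.42 to 9.30 ± 0.14 (SD, n = 3 each, limma adjusted p = 0.00861). Fcgr2b, which encodes the inhibitory IgG receptor FcγRII that the gate excludes, rose 1.34-fold (limma adjusted p = 0.0410). Beside Lilrb4a, the checkpoint receptor Havcr2 (TIM-3) fell 1.45-fold (limma adjusted p = 0.00655) and the SLAM family receptor Cd244a fell by 0.59 (limma adjusted p = 0.0214). Pecam1, Cd72 and Siglecf, the brightest that did not pass, differed by -0.32, -0.27 and -0.21. The count of 5 was 3 without flox/flox replicate 1, without Mx1Cre replicate 2 or without Mx1Cre replicate 3. It was 1 (Lilrb4a) when all 34760 probe sets entered the fit. Fcgr2b lost its call on leaving out any array but Mx1Cre replicate 1 and with arrays centred on their medians, and Cd244a without each of the 3 arrays just named.

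Among 27 genes of activating or paired receptors 2 rose and 3 fell, while 22 did not pass (18.5% called against 4.91% of all genes, median 0.01). Trem3 and Clec5a, which both signal through DAP12, rose from dim levels. Trem3 went from 5.57 ± 0.11 to 6.68 ± 0.41 and Clec5a from 4.52 ± 0.052 to 5.53 ± 0.60 (SD, n = 3 each), with limma adjusted p-values of 0.00529 and 0.0376. Clec4e (Mincle), Fcgr3 and Fcer1a, which signal through the Fc receptor γ chain, fell. Clec4e was 3.00-fold lower, reading 10.80, 10.67 and 10.37 in the arrays labelled flox/flox and 8.98, 9.01 and 9.09 in those labelled Mx1Cre (limma adjusted p = 5.22e-05). Fcer1a fell 3.37-fold, from 7.33 ± 0.40 to 5.58 ± 0.68 (SD, n = 3 each, limma adjusted p = 0.00805). The lower of these means lay below the lower quartile of levels. Fcgr3 fell 2.06-fold (limma adjusted p = 0.0097), while Fcer1g itself differed by -0.04 ± 0.11 (SE, limma adjusted p = 0.923). Itgam, Clec4d and Trem2 did not pass, at -0.21, -0.12 and -0.0009, and the partner genes Pilrb1, Pilrb2, Cd200r2, Cd200r3 and Cd200r4 did not pass either, at -0.11 to 0.11. The count of 5 was 4 or 5 without 1 array and 1 (Clec4e) with all probe sets in the fit. Clec5a passed only with all arrays or without Mx1Cre replicate 1 among the fits that leave out an array.

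**Figure D2:**
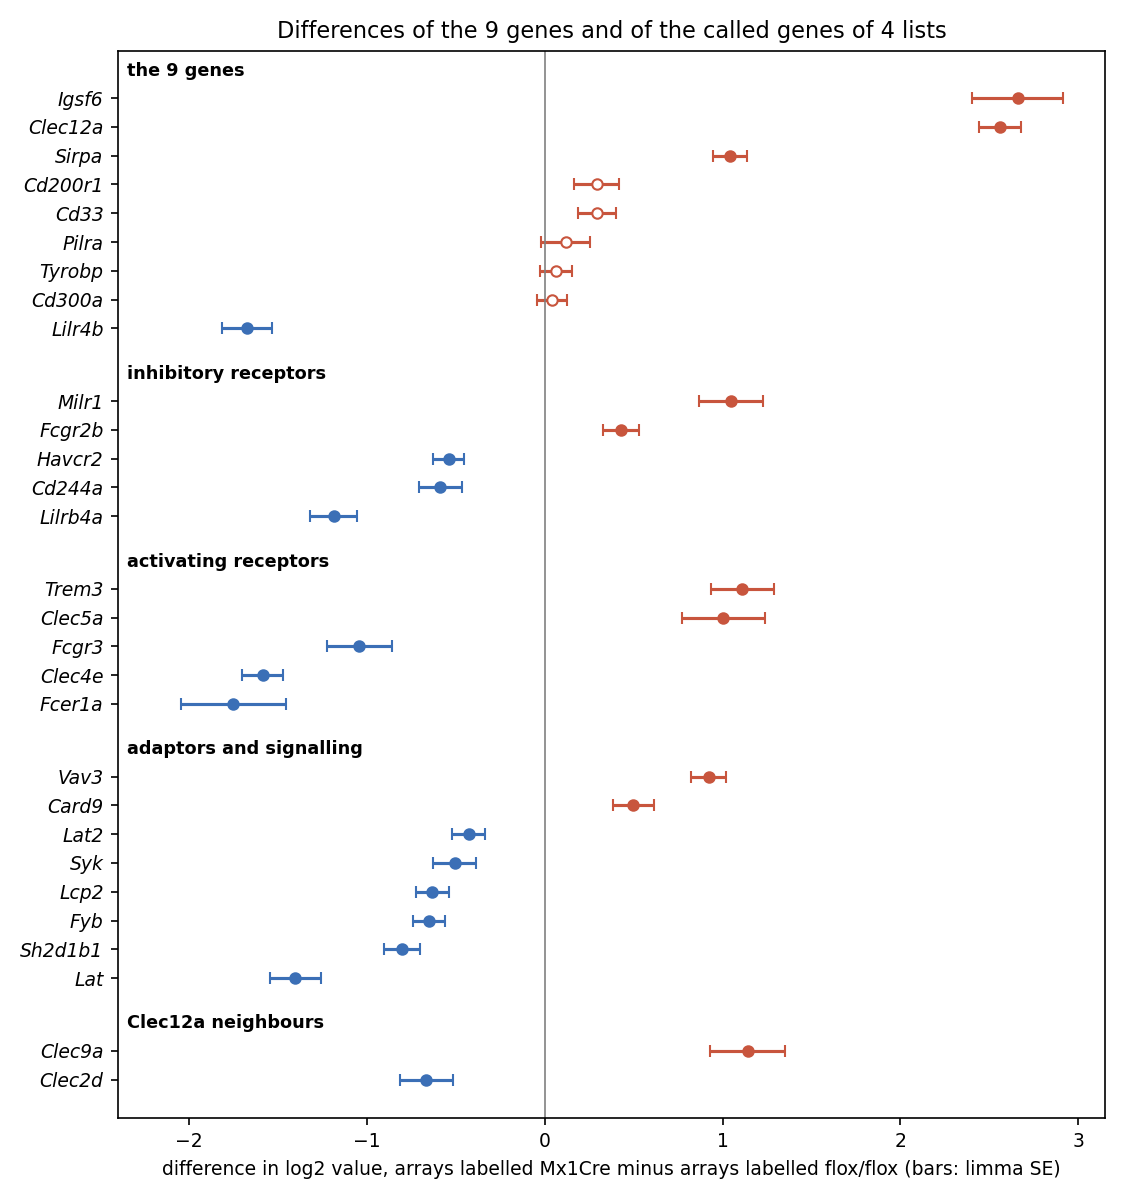
Difference in log2 value (arrays labelled Mx1Cre minus arrays labelled flox/flox) for the 9 genes and for the called genes of 4 lists, with limma standard errors as bars. Open circles are members that were not called. Igsf6 and Clec12a differ by 2.66 and 2.56, and Fcer1a, Lilr4b and Clec4e lie at the other end, at -1.75, -1.68 and -1.59.

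Of 32 genes of the adaptors and signalling proteins downstream, 2 rose, 6 fell and 24 did not pass (median -0.10). The 6 that fell were Lat, Sh2d1b1, Fyb, Lcp2, Syk and Lat2. Lat, a scaffold of T cells, mast cells and megakaryocytes, fell 2.64-fold from 10.4 ± 0.065 to 8.98 ± 0.33 (SD, n = 3 each, limma adjusted p = 0.00054). Lcp2 (SLP-76) and Fyb (ADAP), adaptors that act with it, fell 1.55-fold and 1.57-fold (limma adjusted p 0.00366 and 0.00256). Sh2d1b1 (EAT-2), an adaptor of SLAM family receptors such as the product of Cd244a, fell 1.74-fold (limma adjusted p = 0.00162). Syk, the kinase that binds ITAMs, fell 1.42-fold and Lat2 (NTAL) 1.35-fold (limma adjusted p 0.044 and 0.0288). Vav3, a signalling protein of the Vav family, rose 1.89-fold (limma adjusted p = 0.000646) and Card9, which links Syk to NF-κB, 1.41-fold (limma adjusted p = 0.0386). The phosphatases that ITIMs recruit did not pass: Ptpn6, Ptpn11 and Inpp5d differed by -0.19, -0.05 and 0.27 (limma adjusted p 0.373, 0.859 and 0.234). Ptprc and Skap2 did not pass either, at -0.26 and -0.01. The count of 8 was 5 without Mx1Cre replicate 2, without flox/flox replicate 3 or with all probe sets in the fit. Syk lost its call on leaving out any array but flox/flox replicate 2, and with arrays centred on their medians. Lat2 lost it on leaving out any array but Mx1Cre replicate 3, and Card9 without replicate 2 or 3 of either label.

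Of 10 genes for ligands of the members 0 were called (limma), 0 had an unadjusted p under 0.05, and 0 were called with each of 14 other settings. Their differences ran from -0.19 to 0.19, with Cd47, Itgav and Itgb3 at 0.09, 0.01 and -0.10. Cd200, the ligand gene of Cd200r1, differed by 0.19 ± 0.14 (SE, limma adjusted p = 0.597). Among the other 7 genes of the lectin cluster around Clec12a, Clec9a rose and Clec2d fell, and 5 did not pass. That is 28.6% called, against 4.91% of all genes. Clec9a, a lectin of dendritic cells, went from 4.34 ± 0.19 to 5.49 ± 0.50 (SD, n = 3 each, limma adjusted p = 0.0131), both means being below the lower quartile of levels. Clec2d fell 1.59-fold (limma adjusted p = 0.0333), and Clec7a, Clec1a and Clec12b differed by 0.28, 0.10 and -0.07. Neither passed without flox/flox replicate 3, and Clec2d passed neither without flox/flox replicate 1 nor without Mx1Cre replicate 1 or 2.

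**Figure D3:**
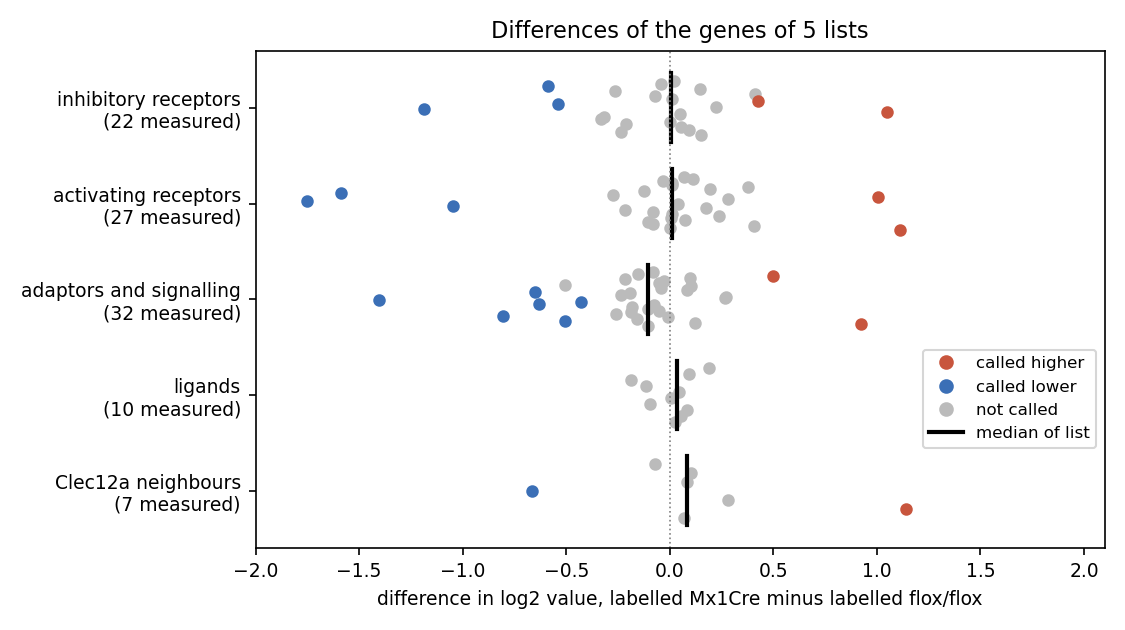
Difference in log2 value for every measured gene of 5 lists, 1 dot per gene, red where called higher, blue where called lower and grey where not called, with a black bar at the list's median. The medians lie between -0.10 and 0.08, and the called genes spread to both sides in every list but the ligands, which have none.

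Many monocyte and neutrophil markers were higher in the same arrays as Clec12a, Igsf6 and Sirpa, while others did not pass. Of 12 monocyte and macrophage markers 9 rose and 0 fell, and their mean log2 level was 6.48 to 6.63 in the arrays labelled flox/flox and 8.07 to 8.26 in those labelled Mx1Cre. Of 14 neutrophil markers 9 rose and 0 fell (64.3% called, mean log2 level 6.25 to 6.44 against 7.48 to 7.92). Of the defining genes, Csf1r rose by 1.88 and Elane by 2.08. The monocyte markers Lyz2, Cd14 and Fcgr1 and the neutrophil markers Ltf, Camp, Mmp8, Mmp9 and Ly6g did not pass. Ly6g and Itgam, markers of more mature cells, differed by -0.03 and -0.21. Itgam, which is from the activating receptor list, did not pass either. Of 11 dendritic cell markers 2, Flt3 and Clec9a, rose and 0 fell (18.2% called). Their part in the differences of Clec12a, Igsf6 and Sirpa was not tested.

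Some mast cell, T cell and NK cell markers were lower in the same arrays as Lilr4b, Lilrb4a and Lat, while others did not pass or rose. Of 14 mast cell and basophil markers 3 rose and 3 fell (42.9% called, where 4.91% of all genes were). Cpa3, Fcer1a and Gzmb were lower and Mcpt8, Hdc and Ms4a2 higher (mean log2 level of the list 7.23 to 7.34 against 7.02 to 7.33). Of the mast cell and basophil protease genes, Mcpt8 rose from a mean of 7.10 to 9.87, while Cpa3 fell from 12.0 to 11.2 and Gzmb from 11.2 to 6.71. Tpsab1, Tpsb2, Cma1, Mcpt4 and Prss34 averaged 4.01 to 6.04 and did not pass. Of 17 T and NK cell markers 4 fell and 0 rose (23.5% called, mean log2 level 6.91 to 6.96 against 6.09 to 6.40). Cd3e and Ncr1 differed by -0.003 and -0.04. The 4 were Gzmb, Tox, Trat1 and Gata3, at -4.45, -2.87, -2.56 and -0.49. Gzmb is thus counted in both the mast cell and the T and NK cell lists. B cell markers showed 0 of 9 called by limma (2 at an unadjusted p under 0.05). Called lower were 2 of 9 erythroid markers (22.2%), 1 of 8 megakaryocyte (12.5%) and 1 of 11 stromal and endothelial (9.09%). Of all genes 2.28% were called lower. A part of any of these cell types in the fall of Lilr4b was not tested.

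**Figure D4:**
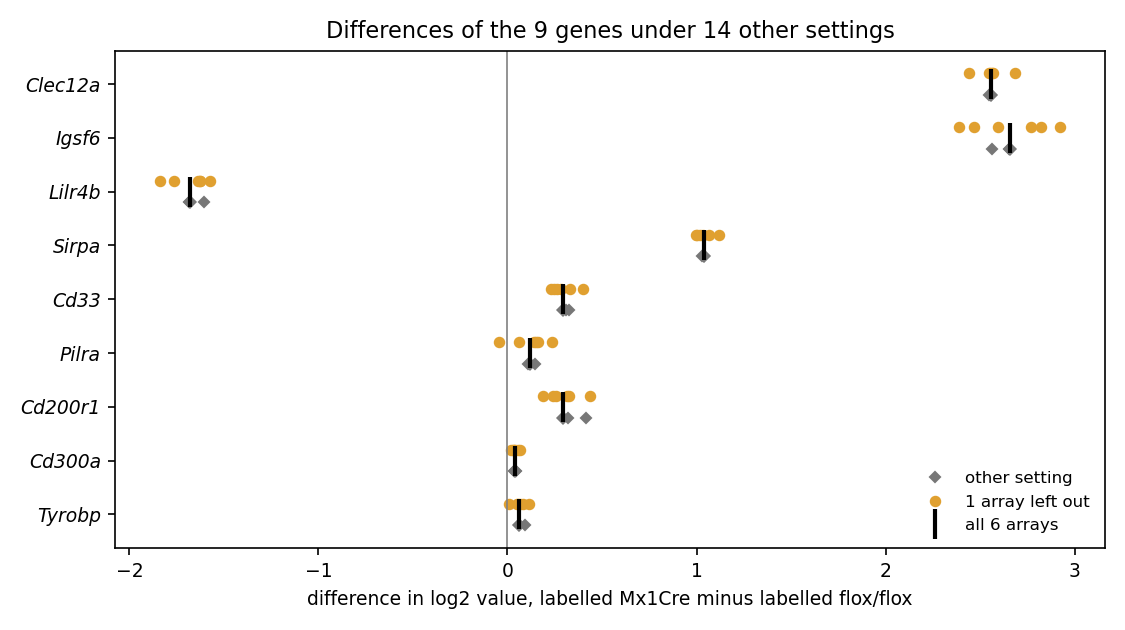
Difference in log2 value of each of the 9 genes with all 6 arrays (black bar), with 1 array left out (orange circles) and with 8 other settings (grey diamonds). The differences of Clec12a, Igsf6 and Sirpa stay above 0 and that of Lilr4b below 0 throughout, while Pilra crosses 0 when 1 array is left out.

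The genes whose pattern over the 6 arrays was nearest to each of 3 members were found by the root mean square distance between gene-centred log2 values. Nearest to Clec12a were Mpeg1, F13a1 and Ccl9, at 0.216, 0.247 and 0.294, where the median gene lay at 1.3. Mpeg1 encodes a pore-forming protein of macrophages, F13a1 a coagulation factor chain and Ccl9 a chemokine. Nearest to Igsf6 were Cxcr2, Cebpa and Hk3, at 0.217, 0.362 and 0.372 (median gene 1.39). Cxcr2 encodes a chemokine receptor and Hk3 a hexokinase of myeloid cells. Cxcr2 shared with Igsf6 that replicate 2 was the lowest of the flox/flox arrays and the highest of the Mx1Cre arrays, at 6.74 and 10.27. Nearest to Lilr4b were Lag3, Dpp4 and Mcoln3, at 0.135, 0.146 and 0.176 (median gene 0.862). Lag3 encodes a checkpoint receptor of lymphocytes, Dpp4 a surface peptidase and Mcoln3 a cation channel. Likeness over 6 arrays in 2 groups mostly restates the difference between the groups.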

How the data were processed

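The authors deposited one log2 value per probe set and array, obtained with RMA in the affy software per the submitters' processing notes (version not given in the sources used here). By definition RMA subtracts background, makes the arrays' distributions alike by quantiles and combines the probes of a set, and it understates differences of dim sets. Medians of the 6 arrays lay between 6.43 and 6.55. Across genes, arrays of the same label correlated at 0.992 to 0.995 and arrays of different labels at 0.984 to 0.990. Precision is limited by the small number of arrays.

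The table's 34760 probe sets comprised 21640 with a single symbol in the platform annotation, which can be old, 1321 with several and 11799 with none. The RefSeq gene table (GRCm38.p6) held 21553 of the 21640 by Entrez number and altered 0 symbols. Genes with several probe sets, 954 in number, were represented by the one with the highest mean, leaving 19937 genes.

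A limma model (version 3.58.1, R 4.3.3, lmFit and eBayes) compared the labels, with Benjamini-Hochberg adjustment over all genes and a threshold of 0.05. The fit was tested on simulated data with the means and spreads of these genes. The members and lists were chosen with earlier results of these data known. Named were all members and, from the receptor, adaptor, ligand and lectin cluster lists, all called genes and the 3 brightest of each list that did not pass. From the cell type lists only some genes were named beside the counts. Alternatives were a replicate term, 1 array left out at a time, centring on array medians, cyclic loess, dropping dim genes, averaging a gene's probe sets, an intensity trend, array weights, and a fit over every probe set. RefSeq promoter windows (GRCm38.p6) were found for 6 of the 9 members, and their first 250 bases, up to the start site, were searched.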

Additional observations from a re-analysis of the deposited data

How the results depend on the processing

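The number of genes called, 979, was 538 to 785 without 1 array and 244 with all probe sets in the fit, and 861 to 1389 in the other settings. Inhibitory receptors numbered 3 to 5 without 1 array and 1 with all probe sets, activating receptors 4 to 5 and 1, and adaptors 5 to 7 and 5. For the lectin cluster the count was 0 to 2 without 1 array, 0 with all probe sets and 1 once dim genes were dropped, which left 2 of its genes tested. The 4 members called kept their call and direction in each of the 14 settings, and no member moved by more than the spread between its replicates. The members were selected on these same arrays, so this describes the fits and is no test of the members. The called genes of the receptor, adaptor and lectin cluster lists and Flt3, 21 in number, were followed over the settings. Of these, 7 kept their call in all 14 settings (Lilrb4a, Clec4e, Vav3, Lcp2, Lat, Sh2d1b1 and Fyb). The other 14 lost it in at least 1, of which Fcer1a, Fcgr3, Flt3, Havcr2, Milr1 and Trem3 only with all probe sets. None of the 21 changed direction. Other called genes of the cell type lists were not followed in this way. Deviations of same-numbered arrays correlated at 0.188, 0.0515 and 0.174, and the labels do not tie the numbers to shared animals or days. With the replicate block 1089 genes were called, 2 of 3 numbers correlated best with their own, and among the named genes Card9 alone lost its call. Counts without 1 array rest on 5 arrays.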

Other observations

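Most chromosomal neighbours of the 9 members did not pass, as was the case for most genes. Of 54 measured protein-coding genes, 3 on each side of every member in RefSeq order, 2 were higher in the arrays labelled Mx1Cre, 2 lower and 50 did not pass (limma). Of all genes 2.63% were called higher and 2.28% lower. The 4 called lay beside Clec12a and Lilr4b. Beside Clec12a, Cd69, an early activation lectin, rose 2.26-fold from 6.88 ± 0.65 to 8.05 ± 0.21 (SD, n = 3 each, limma adjusted p = 0.0318), and Clec9a and Clec2d are described above. Lilrb4a was the called neighbour of Lilr4b.

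Of 98 genes other than the members in 11 symbol families of these receptors and adaptors, 4 rose and 7 fell (11.2% called, against 4.91% of all genes). The families overlap the lists above, so most of these calls are counted a second time. Only Clec2i and the 3 called Klr genes were in none of the lists. Of 32 Clec genes other than Clec12a 2 rose and 3 fell, among them Clec2i, a lectin ligand of NK cell receptors (2.14-fold lower, limma adjusted p = 0.000606). Of 23 Klr genes, a family of NK cell lectins, 1 rose and 2 fell. One of the falls was that of Klrb1-ps1, a pseudogene by its symbol, from a dim 4.94 to 4.56 (limma adjusted p = 0.0403). Klrb1f rose 1.89-fold and Klrb1b fell 3.08-fold (limma adjusted p 0.000251 and 0.00353), and their probes can cross-react. The other 3 calls were Trem3 of 6 Trem genes, higher, and Lilrb4a of 4 Lilr and Pir and Sh2d1b1 of 3 Sh2d1 genes, lower. Of 6 Siglec, 7 Cd300, 5 Slamf and 7 Dok genes limma called 0, and 1, 2, 1 and 2 had an unadjusted p under 0.05. Of 3 Cd200r and 2 Pilr genes limma also called 0, with 0 at an unadjusted p under 0.05. These families were chosen after the data were seen.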
